A study of Mus musculus with 6 samples.

Results

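miR-9 is a brain miRNA whose hairpin gives a mature product from each arm, miR-9-5p and miR-9-3p, and miR-9b is the name given to products read from the opposite strand of the miR-9 genes. The 4 rows of the table named mmu-miR-9-5p, mmu-miR-9-3p, mmu-miR-9b-5p and mmu-miR-9b-3p (the mouse prefix is left out from here on) were taken by name from the 1364 rows deposited. Names from miRBase, the miRNA catalogue, are carried by 1281 of these rows, and the other 83 are predictions of the authors. The counts come from small RNA sequencing of the nucleus accumbens (NAc), a reward region of the ventral striatum, in a morphine conditioned place preference (CPP) experiment, where a mouse learns to prefer the chamber in which it received the drug. The comparison asked which miRNAs differ in the NAc after this training. Male C57BL/6N mice of 7 to 8 weeks were conditioned for 6 days with intraperitoneal morphine at 10 mg/kg (morphine group) or with saline at 1 ml/kg (saline group), were tested on day 7, and NAc tissue was taken 0.5 h after the test. By the methods, morphine or saline was given in sessions that alternated between morning and afternoon. The score set time in the morphine-paired chamber against time in the saline-paired one. The mice carried no genetic change, both groups went through the same stages of CPP training, and there were 3 libraries per group. The design text of the series amounts to 2 mice per library and a figure legend of the study gives 1 mouse, so it is not clear whether tissue was pooled. The p-values below measure only the spread between these 6 libraries.

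miR-9-5p is the arm loaded more often into the silencing complex, and its known targets in neural cells include the transcriptional repressor REST and regulators of progenitor growth. miR-9-3p, also written miR-9*, is known to target the REST partner CoREST, so that the arms of this hairpin act on the same repressor complex during neuron formation. In adult neurons, miR-9 has been studied for its action on potassium channel mRNAs under alcohol. A mature miRNA finds its targets mainly through its seed, bases 2 to 8, so arms with different seeds have different targets.

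The sequences below are shown because every comparison that follows turns on how these 4 products overlap. They are the RefSeq mature sequences (GRCm38.p6), which were found for 4 of 4 names, and the capitals mark the seed.
miR-9-5p: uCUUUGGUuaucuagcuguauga
miR-9-3p: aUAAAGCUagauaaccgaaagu
miR-9b-5p: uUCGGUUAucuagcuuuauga
miR-9b-3p: aUACAGCUagauaaccaaaga
The 4 seeds differ, and no other mature name in the RefSeq table shares any of them. The lengths are 23, 22, 21 and 21 nt, in the order of the list.

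Read as reverse complements, the miR-9b products are the miR-9 arms with other ends. The reverse complements are printed with the bases that match the miR-9 arm in capitals.
miR-9b-3p, reverse complement, against miR-9-5p: UCUUUGGUUAUCUAGCUGUAU
miR-9b-5p, reverse complement, against miR-9-3p: ucAUAAAGCUAGAUAACCGAA
All 21 bases of miR-9b-3p pair with miR-9-5p from its first base, and 2 bases of the miR-9-5p 3′ end are left over. For miR-9b-5p, 19 of 19 overlapping bases pair with miR-9-3p, its footprint begins 2 bases before the 5′ end of miR-9-3p, and 3 bases of the miR-9-3p 3′ end are left over. On the same strand, miR-9b-5p also resembles miR-9-5p, with 19 of 21 compared bases equal and a shared run of 12 nt (GGUUAUCUAGCU) whose first bases lie in the seed of miR-9-5p. miR-9b-3p and miR-9-3p have 17 of 21 compared bases equal.

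The mouse genome has 3 miR-9 genes, all annotated on the plus strand of GRCm38. Mir9-1 lies at chr3:88215598-88215686 in an intron of the lincRNA Gm3764. Mir9-2 lies at chr13:83738814-83738885 and overlaps an exon of the lincRNA C130071C03Rik, and Mir9-3 lies at chr7:79505264-79505353 in an intron of the lincRNA Mir9-3hg. RefSeq places a gene on the minus strand opposite each of them: Gm25641 at Mir9-1 and Gm51285 at Mir9-3, both with miR-9b-5p and miR-9b-3p, and Gm51268 at Mir9-2, with miR-9b-3p alone. The Mir9-1 hairpin is shown with its arms in capitals, miR-9-5p first and miR-9-3p second.
Mir9-1: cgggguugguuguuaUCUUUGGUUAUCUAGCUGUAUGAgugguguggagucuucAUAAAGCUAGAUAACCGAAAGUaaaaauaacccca
The reverse complements of both miR-9b products are found in 3 of 3 miR-9 hairpins, also where RefSeq lists no miR-9b-5p. Counts of a row can therefore come from any of these loci, and the strand setting of the authors' counting is not given in the sources used here, so reads of a miR-9 arm and of the miR-9b product opposite it cannot be told apart from the counts alone.

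The library totals were between 4183333 and 8335096 counts in the saline group and between 7290936 and 9842050 in the morphine group. A level of 3 counts corresponded to 0.305 to 0.717 counts per M counts (CPM). Saline replicate 2 stood apart from the rest of its group: the Spearman correlation of its counts with saline replicates 1 and 3 was 0.869 and 0.874, against 0.907 to 0.926 with the morphine libraries and 0.952 between saline replicates 1 and 3. The fold changes of the miR-9 and miR-9b rows are given with and without it, as are those of several other rows. Intervals on counts below describe counting error alone and leave out the spread between animals and libraries. PCR copies of a molecule were not marked and could be counted more than once, so these intervals can be too narrow even for counting error.

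miR-9-5p was among the 3 most abundant rows in every library, and its mean level differed between the groups by less than the spread between replicates. Its counts were 378904, 1408228 and 581271 in saline replicates 1, 2 and 3 and 1013841, 654328 and 628891 in morphine replicates 1, 2 and 3. As a share of its library this was 9.06%, 16.9% and 8.06% for saline and 10.3%, 8.97% and 8.32% for morphine. Saline replicate 2 was thus the highest library, saline replicate 1 lay inside the range of the morphine libraries and saline replicate 3 just below it, and the groups overlapped. In CPM after scaling by the trimmed mean of M-values (TMM), miR-9-5p was at 69350, 211200 and 60960 in the saline libraries and at 112200, 95870 and 98760 in the morphine libraries. On that scale saline replicates 1 and 3 were below every morphine library and saline replicate 2 was above all of them. The group means were 113800 ± 84420 (SD, n = 3) for saline and 102300 ± 8690 (SD, n = 3) for morphine, and edgeR's quasi-likelihood test gave a log2 fold change of -0.15 (SE 0.51, 95% interval -1.21 to 0.90, adjusted p = 0.868). In a bulk tissue such as this, fewer cells of a type and less RNA per cell cannot be told apart.

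miR-9-3p, the arm with fewer counts, showed nearly the same order of libraries with a wider spread. There were 1296, 23431 and 2352 counts in saline replicates 1, 2 and 3 and 11486, 6829 and 7485 in morphine replicates 1, 2 and 3, which placed it between rank 49 and rank 138 of the table. In TMM-scaled CPM it was at 237.2, 3514 and 246.7 in the saline group and at 1271, 1001 and 1175 in the morphine group. Saline replicate 2 alone was above the morphine libraries, and saline replicates 1 and 3 were both below them. The means were 1333 ± 1889 (SD, n = 3) and 1149 ± 137 (SD, n = 3), and the log2 fold change was -0.21 (SE 0.70, 95% interval -1.67 to 1.24, edgeR adjusted p = 0.868).

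miR-9b-3p, the product opposite miR-9-5p, carried almost the same counts as miR-9-5p in every library. It had 377170, 1404803 and 579290 counts in the saline group and 1011772, 652924 and 627564 in the morphine group, so it stood directly behind miR-9-5p in the order of abundance in each library. Its log2 fold change was -0.15 (SE 0.51, edgeR adjusted p = 0.869), and its interval, -1.20 to 0.90, was close to that of miR-9-5p. Together the miR-9-5p and miR-9b-3p rows held 18.1%, 33.7% and 16.1% of the saline counts and 20.6%, 17.9% and 16.6% of the morphine counts. With both miR-9b rows taken out of the total, miR-9-5p itself held 9.96%, 20.3% and 8.76% of the saline counts and 11.5%, 9.86% and 9.07% of the morphine counts.

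miR-9b-5p, the product opposite miR-9-3p, was the member that rose. It had 8, 138 and 17 counts in saline replicates 1, 2 and 3 and 1993, 1871 and 1370 counts in morphine replicates 1, 2 and 3. The groups did not overlap, and the highest saline library, again replicate 2, was far below the lowest morphine library. In TMM-scaled CPM the levels were 1.46, 20.7 and 1.78 in the saline group and 220.5, 274.1 and 215.1 in the morphine group, with means of 7.98 ± 11.01 (SD, n = 3) and 236.6 ± 32.6 (SD, n = 3). The rank of the row went from between 324 and 548 in the saline libraries to between 143 and 164 in the morphine libraries. The log2 fold change was 4.89 (SE 0.69, 95% interval 3.45 to 6.32, edgeR adjusted p = 0.000999), and 8 of the 1364 rows had a larger one.

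By the study's criteria for a DEmiRNA (differentially expressed miRNA; an absolute log2 fold change not under 0.58 with p up to 0.05 before adjustment), 1 of the 4 members, miR-9b-5p, was called in edgeR, while 264 of 1364 rows (19.4%) were called in all and 132 (9.68%) were higher in the morphine group. At an adjusted p under 0.05 the same member was called, against 5.21% of all rows in either direction and 3.08% higher in the morphine group. Its values did not overlap between the groups, as was so for 22.1% of all rows. The median log2 fold change of all rows was -0.15, so miR-9-5p and miR-9b-3p were at the median of the table and miR-9-3p was slightly under it. The call of miR-9b-5p at an adjusted p was lost without morphine replicate 1 (log2 fold change 5.07, adjusted p = 0.107) and with rows of under 10 counts in total left out (4.82, adjusted p = 0.0539). By the study's criteria it was kept in both. Without morphine replicate 1 none of the rows passed at an adjusted p in edgeR, with 176 at an unadjusted p under 0.05.

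**Figure D1:**
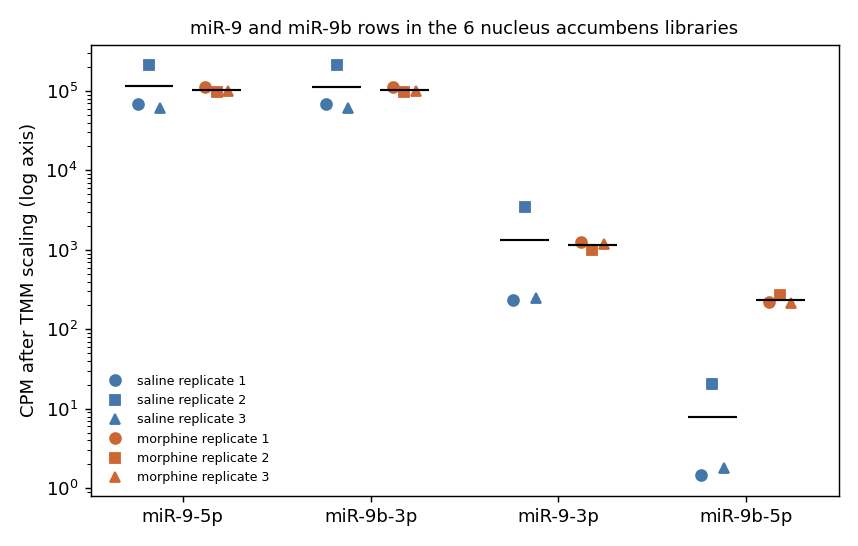
TMM-scaled CPM (log axis) of the 4 rows, with a symbol for each replicate, colour for the group and a black line at the mean of 3 libraries. The miR-9-5p and miR-9b-3p rows cannot be told apart by eye, saline replicate 2 is the highest library for 3 of the rows, and miR-9b-5p is the row whose groups do not overlap, with 215.1 to 274.1 CPM in the morphine group against 1.46 to 20.7 CPM in the saline group.

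The members other than miR-9b-5p depended on saline replicate 2. Without that library the log2 fold change was 0.65 for miR-9-5p (edgeR adjusted p = 0.0197), 2.25 for miR-9-3p (adjusted p = 4.01e-15) and 0.65 for miR-9b-3p (adjusted p = 0.019). For each of them the sign turned from lower to higher in the morphine group. miR-9b-5p was at 1.62 CPM on average in saline replicates 1 and 3, and its log2 fold change without saline replicate 2 was 7.15. The median log2 fold change of all rows was 0.20 in that fit, so the rise of miR-9-5p and miR-9b-3p beyond it was smaller. All 4 rows were then called by the study's criteria and did not overlap between the groups in TMM-scaled CPM. In that fit 278 of 1328 rows (20.9%) were called higher, 17.2% were higher at an adjusted p under 0.05 and 25.4% were higher without overlap. Its saline spread comes from replicates 1 and 3 alone, and 386 rows passed at an adjusted p, against 71 with all libraries. Very small adjusted p-values in this fit are to be read with that limit. As shares of their libraries, miR-9-5p (9.06%) and miR-9b-3p (9.02%) in saline replicate 1 still lay inside the range of the morphine libraries. The TMM factors with all 6 libraries were 1.31 and 1.32 in saline replicates 1 and 3 and 0.92, 0.94 and 0.84 in the morphine libraries. Scaling thus lowered the levels in these saline libraries and raised those in the morphine libraries, so the size of the rises depends on it. Other scalings were not combined with leaving out saline replicate 2. With all 6 libraries the intervals of miR-9-5p and miR-9-3p hold differences of either sign, so neither a rise nor a fall of these arms was detectable.

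**Figure D2:**
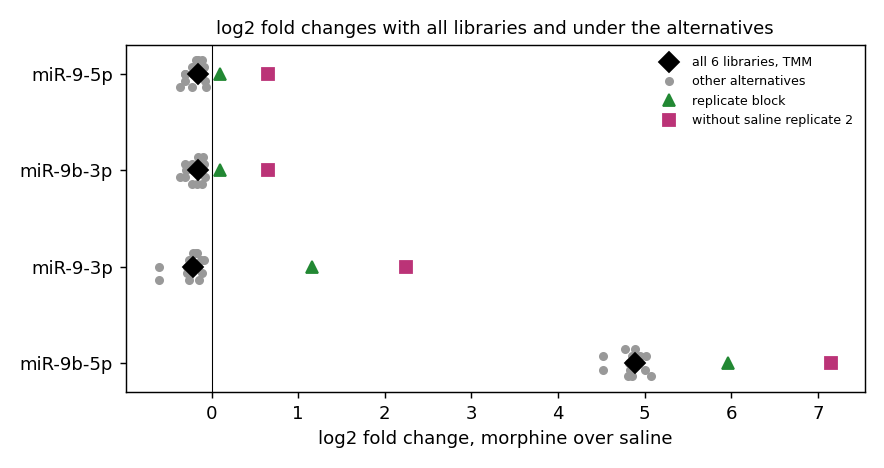
log2 fold change of each row (morphine over saline) with all 6 libraries (black), without saline replicate 2 (squares), with the replicate number as a block (triangles) and under the other alternatives (grey). miR-9-5p, miR-9b-3p and miR-9-3p move across 0 with saline replicate 2 left out, to 0.65, 0.65 and 2.25, whereas miR-9b-5p is between 4.52 and 7.15 in all settings.

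The ratio of the arms does not depend on how libraries are scaled. In the saline libraries there were 292.4 (95% interval 276.8 to 309), 60.1 (59.33 to 60.88) and 247.1 (237.3 to 257.5) counts of miR-9-5p for each count of miR-9-3p in replicates 1, 2 and 3. In the morphine libraries there were 88.27 (86.66 to 89.91), 95.82 (93.56 to 98.14) and 84.02 (82.13 to 85.97), with exact binomial intervals for counting error. The morphine libraries were close to each other, with a mean of 89.4 ± 5.98 (SD, n = 3), while the saline libraries had a mean of 199.9 ± 123.1 (SD, n = 3). Saline replicates 1 and 3 were above all morphine libraries and saline replicate 2 below all of them, so the groups overlapped, whereas they did not for 35.7% of the arm pairs tested. The 5p arm led in each library, and over the 258 pairs of arms with at least 10 counts per arm, 26 (10.1%) had a median ratio of 5p over 3p at or above that of miR-9.

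On the log2 scale the arm ratio of miR-9 was 7.35 ± 1.25 (SD, n = 3) for saline and 6.48 ± 0.10 (SD, n = 3) for morphine. The difference of -0.87 (SE 0.68, 95% interval -2.50 to 0.76) was not called in limma (adjusted p = 0.437 over the 258 pairs, of which 6.98% were called). An exact two-sided permutation test over the 6 libraries gave p = 0.4, where 0.1 is the smallest p that 3 libraries against 3 allow. Without saline replicate 2 the difference was -1.59 (limma adjusted p = 0.0128), that is, fewer miR-9-5p counts per miR-9-3p count in the morphine group. With the counts of the opposite row added to each arm, it was -1.13 (adjusted p = 0.289).

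miR-9b-3p followed miR-9-5p closely in every library. For each 100 counts of miR-9-5p there were 99.54, 99.76 and 99.66 counts of miR-9b-3p in saline replicates 1, 2 and 3 and 99.80, 99.79 and 99.79 in morphine replicates 1, 2 and 3. miR-9b-3p was short of miR-9-5p by 1734, 3425 and 1981 counts in the saline group and by 2069, 1404 and 1327 in the morphine group. The log2 ratio was higher in the morphine group by 0.0020 (95% interval -0.0018 to 0.0058, limma adjusted p = 0.493), a difference that was not called although the groups did not overlap, as for 29.2% of the 24 opposite-strand pairs with at least 10 counts per row. The interval limits any difference in this ratio of counts to less than 0.01 on the log2 scale. Reads of these rows cannot be told apart from the counts, so neither the test nor the interval can speak for separate products.

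miR-9b-5p and miR-9-3p behaved otherwise. For each 100 counts of miR-9-3p there were 0.617 (95% interval 0.266 to 1.22), 0.589 (0.495 to 0.696) and 0.723 (0.420 to 1.16) counts of miR-9b-5p in saline replicates 1, 2 and 3. In morphine replicates 1, 2 and 3 there were 17.35 (16.54 to 18.2), 27.4 (26.02 to 28.84) and 18.3 (17.27 to 19.39). Saline replicate 2, which had by far the most counts of both rows in its group, had the same share as the other saline libraries within counting error. The mean share was 0.643 ± 0.0705 (SD, n = 3) for saline and 21.0 ± 5.55 (SD, n = 3) for morphine. The log2 ratio was higher in the morphine group by 4.92 (SE 0.22, 95% interval 4.32 to 5.52), which limma called with an adjusted p of 0.000287 in a family of 24 pairs of which 16.7% were called. The exact permutation test gave p = 0.1, the smallest it allows. Without saline replicate 2 the difference was 4.82 (limma adjusted p = 0.00284), so this ratio, unlike the levels of the arms, did not rest on that library.

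Against miR-9-5p, which miR-9b-5p resembles on the same strand, the counts of miR-9b-5p were 0.00211, 0.00980 and 0.00293 per 100 in the saline libraries and 0.197, 0.286 and 0.218 per 100 in the morphine libraries. The groups did not overlap here either, and saline replicate 2 was above the rest of its group. The ends of these products also differ, as the sequence list given earlier shows. The miR-9b-5p footprint on the miR-9 hairpin begins 2 bases upstream of miR-9-3p, whereas that of miR-9b-3p begins at the first base of miR-9-5p. Whether these ends bear on the ratios was not tested.

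**Figure D3:**
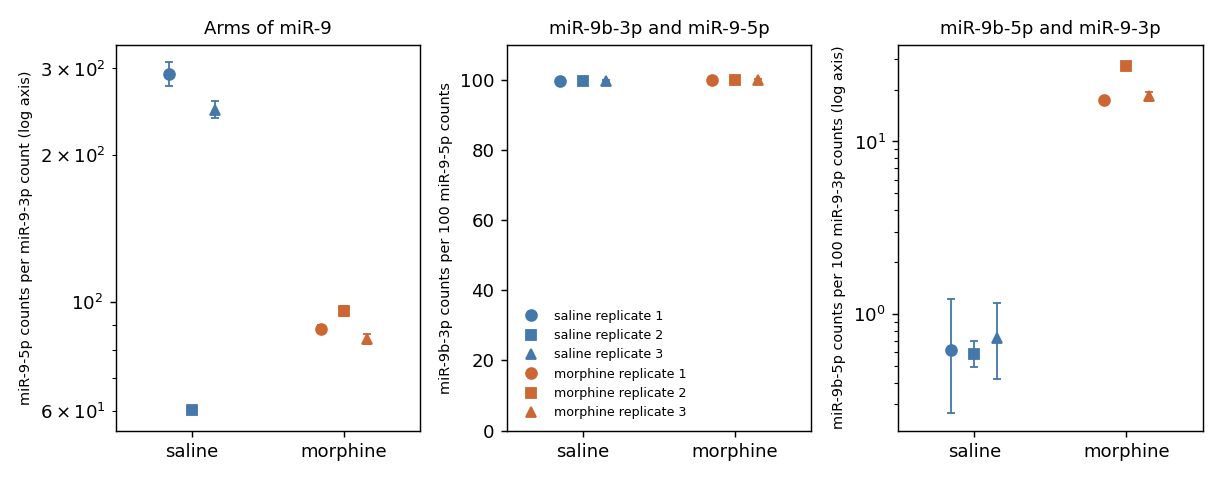
Ratios of counts within each library, with 95% exact binomial intervals for counting error: miR-9-5p per miR-9-3p (left, log axis), miR-9b-3p per 100 miR-9-5p (middle, linear axis from 0) and miR-9b-5p per 100 miR-9-3p (right, log axis). The saline libraries are spread from 60.1 to 292.4 in the arm ratio, all libraries are near 100 in the middle panel, and the groups are apart on the right, with 0.589 to 0.723 against 17.35 to 27.4.

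The same measure was taken at the other loci where the table holds rows on both strands. There were 28 such pairs, of which 12 had at least 1000 counts in each row. In 7 of the 12, miR-9b-3p with miR-9-5p among them, the row with fewer counts had at least 0.9 of the other in all 6 libraries. miR-9b-5p with miR-9-3p was among the 5 that did not. Of these 5, 3 had a higher ratio in the morphine group at an adjusted p under 0.05 in limma, and none was called lower. miR-126b-5p, opposite the endothelial miR-126a-3p, was at 0.0909, 0.211 and 0.108 per 100 in the saline libraries and at 1.19, 0.935 and 1.45 per 100 in the morphine libraries (log2 difference 3.10, adjusted p = 0.00801). miR-30f, opposite miR-30e-3p, was at 20.8, 30.3 and 21.7 per 100 against 45.3, 52.1 and 47.7 per 100 (log2 difference 1.01, adjusted p = 0.0265). The difference for miR-9b-5p was the largest of the 24 pairs tested.

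The remaining pairs below 0.9 were not called. miR-136-5p per 100 counts of miR-3071-3p went from 10.7, 42.2 and 13.9 in the saline libraries to 62.3, 41.9 and 46.0 in the morphine libraries, with saline replicate 2 inside the range of the morphine group (log2 difference 1.41, limma adjusted p = 0.249). miR-129b-5p per 100 counts of miR-129-2-3p was between 15.9 and 19.4 in the saline group and between 14.3 and 16.9 in the morphine group (log2 difference -0.22, adjusted p = 0.335). A pair with fewer counts, miR-203b-5p with miR-203-3p, was also called higher (log2 difference 1.91, adjusted p = 0.0275), which makes 4 of 24 pairs in all, each of them higher in the morphine group. How the authors assigned reads at these loci was not examined, since the reads were not used here.

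**Figure D4:**
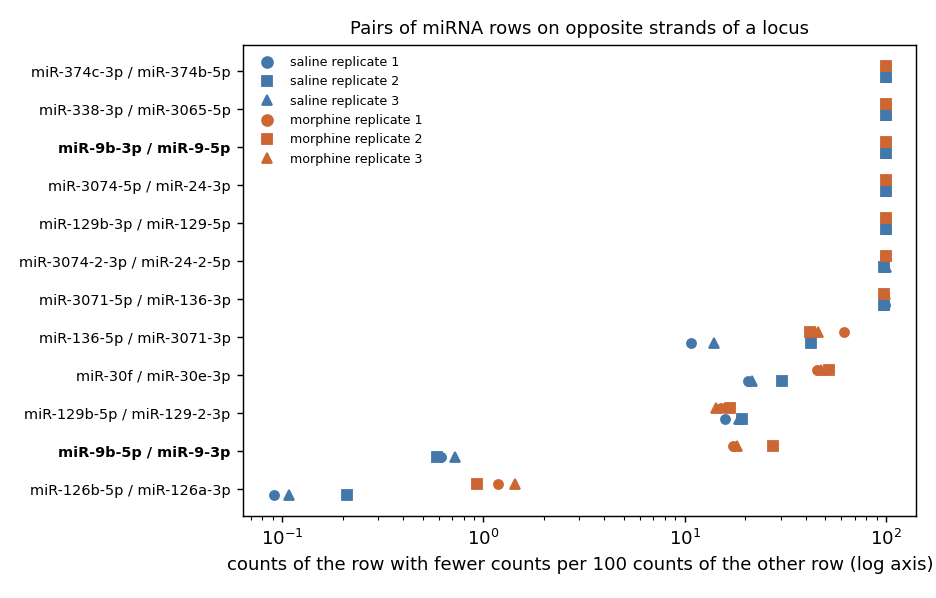
Counts of the row with fewer counts per 100 counts of the row opposite it (log axis) in each library, for the 12 pairs with at least 1000 counts per row, ordered by their median and with the miR-9 pairs in bold. In 7 pairs all points lie near 100. Below them miR-9b-5p / miR-9-3p shows the widest gap between the groups.

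The rows most like the miR-9 arms over the 6 libraries were taken from 209 other rows with a mean of at least 100 CPM, by Pearson's r of log2(CPM + 1). For miR-9-5p these were miR-101a-3p (r = 0.990), miR-340-5p (0.989), miR-335-5p (0.985), miR-101b-3p (0.979) and miR-136-3p (0.972). For miR-9-3p they were miR-153-3p (r = 0.997), miR-369-3p (0.994), miR-135b-5p (0.991), miR-29b-3p (0.989) and miR-137-3p (0.988). The points are 6 libraries that each row shares, so these values are descriptions. Spearman's rho was at least 0.886 for each of the 10 rows, and without saline replicate 2 r was between 0.899 and 0.994. All 10 were highest in saline replicate 2 and lowest in saline replicates 1 and 3, as the arms of miR-9 were. In edgeR none of the 10 was called with all libraries, with log2 fold changes of -1.50 to -0.01, and without saline replicate 2 all 10 were called higher, at 1.64 to 3.31. miR-101a-3p, for example, was at 556.4, 17120 and 555.5 CPM in the saline libraries and at 2445, 1864 and 2478 CPM in the morphine libraries. Between the members themselves, r was 0.953 for miR-9-5p with miR-9-3p, 1 after rounding for miR-9-5p with miR-9b-3p and 0.647 for miR-9-3p with miR-9b-5p (n = 6 libraries).

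Base composition moved with the level in saline replicate 2. In the 9 of these 10 rows with a RefSeq sequence the GC content of the mature miRNA was between 23.8% and 42.1%, with a median of 34.8%, and in miR-9-5p and miR-9-3p it was 34.8% and 31.8%. The median was 47.6% over the 171 rows with at least 100 CPM and a sequence, the row with fewer counts of each opposite-strand pair left out. Over these 171 rows, the Spearman correlation of GC content with the log2 difference of saline replicate 2 from the mean of saline replicates 1 and 3 was -0.69, across rows of the same libraries that are not independent replicates. That log2 difference was 1.70 for miR-9-5p and 3.86 for miR-9-3p, with a median of 0.36 over the rows, and 41 and 10 rows had a larger one. The part of base composition in the levels of the miR-9 arms was not tested.

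**Figure D5:**
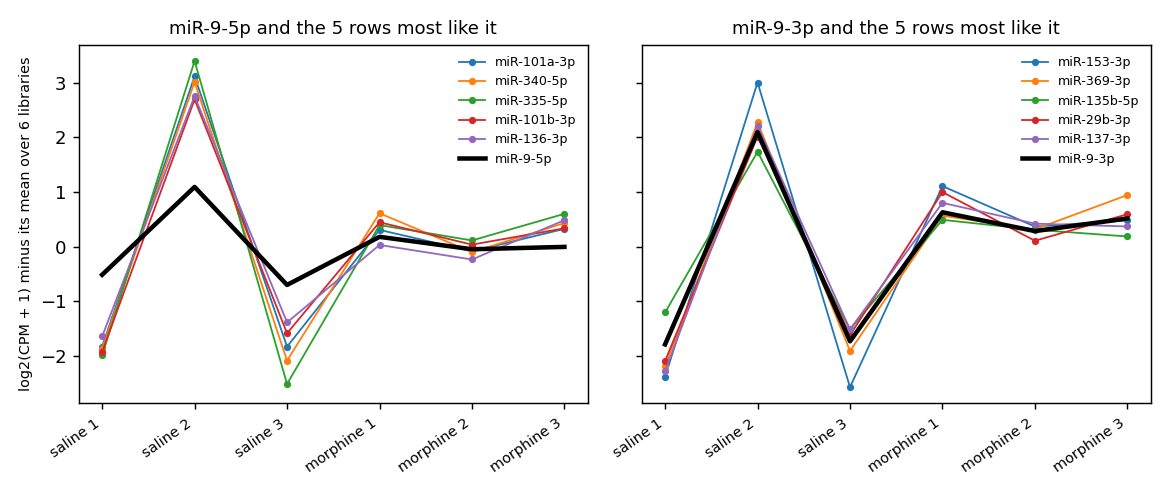
log2(CPM + 1) minus its mean over the 6 libraries for miR-9-5p (left, black) and miR-9-3p (right, black) with the 5 rows most like each. Every line is highest in saline replicate 2, and the 3 morphine libraries lie close together. On the left the like rows swing more widely than miR-9-5p itself.

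Beside the miR-9 arms, 14 miRNAs known from neurons and neural differentiation were looked up, all of which are in the table. In edgeR 1 of 14 rose and 4 of 14 fell by the study's criteria, against 9.68% of all rows in each direction, and those that fell also passed at an adjusted p under 0.05, against 5.21% of all rows. The one that rose was miR-218-5p, known from motor and dopamine neurons (log2 fold change 1.53, adjusted p = 0.0698). Those that fell were miR-124-3p, the miRNA most typical of neurons (-1.88, adjusted p = 0.0195), miR-129-5p (-2.07, adjusted p = 0.0207), miR-125b-5p (-1.77, adjusted p = 0.0365) and miR-181a-5p (-1.58, adjusted p = 0.0437). The median log2 fold change of the list was -0.23, against -0.15 for all rows, and miR-9-5p and miR-9-3p were both close to these medians.

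As with the miR-9 arms, several of these values rested on saline replicate 2. miR-153-3p, miR-29b-3p and miR-137-3p, which are also among the rows most like miR-9-3p, had log2 fold changes of -0.80, -0.01 and -0.24 with all libraries and were not called. Without saline replicate 2 they turned to 3.31, 2.47 and 2.42 and were called higher. In that fit 7 of the 14 were called higher and 4 lower, against 20.9% and 16.1% of all rows, and the median of the list was 0.51 against 0.20 for all rows. The miRNAs called with all libraries kept their direction and were called again, with 2.26 for miR-218-5p and -2.04 for miR-124-3p.

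Single markers of other cells moved with the groups in which miR-9b-5p differed. The share of all rows called by the study's criteria in edgeR was 9.68% in each direction. The sum of the 4 neuron markers overlapped between the groups, with 61360 to 73270 TMM-scaled CPM in the saline group and 70320 to 106800 in the morphine group, and 1 of 4 was called lower (miR-124-3p). The 2 endothelial markers summed to 1485 to 5002 CPM against 10980 to 16260 CPM. That sum was carried by miR-126a-3p, which was called higher, while miR-126a-5p had a log2 fold change of -0.96 and was not called (1.25 without saline replicate 2, where it was called higher). The 4 myeloid markers summed to 155.2 to 272.4 CPM against 853.6 to 1069 CPM, carried by miR-146a-5p, the one of them called higher. The other myeloid markers were not called, with -0.39 for miR-142a-3p, -0.67 for miR-142a-5p and 0.41 for miR-223-3p, and the median of the list was 0.01. Without saline replicate 2 these other markers were at 0.39, 0.68 and 0.13 and again not called.

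In the choroid plexus and ependyma list the sum was 1945 to 2766 CPM in the saline group and 940.3 to 992.1 CPM in the morphine group. That sum was carried by miR-204-5p, which was called lower. The other members, miR-449a-5p, miR-34b-5p and miR-34c-5p, were at 0.69, 0.17 and -0.29 and were not called. Without saline replicate 2 they were called higher, at 1.85, 5.675 and 1.28, whereas miR-204-5p was again called lower (-1.74). In saline replicates 1 and 3 miR-34b-5p was at 0 CPM, and in the morphine libraries it was at 0.996, 0.879 and 0.628 CPM. These levels are near that of 3 counts, so the size of its change is poorly known. Of the epithelial markers 3 of 4 were called higher, none of them at an adjusted p under 0.05. Their groups overlapped in sum (6.61 to 31.8 CPM against 27.3 to 222.7 CPM), and morphine replicate 1 was the highest library for each of the 3, with 123.2 CPM of miR-200a-3p against 10.99 and 22.3 CPM in the other morphine libraries. Without saline replicate 2, miR-200a-3p (3.285), miR-200b-3p (2.05) and miR-429-3p (4.49) were again called higher. They then also passed at an adjusted p under 0.05 in edgeR, as 17.2% of all rows did in that direction. miR-141-3p (-0.46) was not called, and miR-429-3p was at 0.366 and 0.524 CPM in saline replicates 1 and 3. The oligodendrocyte marker miR-219a-5p was called lower with 63.9 CPM in saline replicate 2 and at most 3.98 CPM in any other library, and it was not called without that replicate (log2 fold change -0.50). The other oligodendrocyte markers, miR-219a-2-3p (0.01) and miR-338-3p (-0.31), were not called. Without saline replicate 2, miR-338-3p was called higher (0.88) and miR-219a-2-3p was not called (-0.08). Further calls were 1 of 4 mural and fibroblast markers and 1 of 3 red blood cell markers higher. Lower calls were 1 of 3 muscle markers and the liver marker. None of these passed at an adjusted p under 0.05. The mural and fibroblast call was miR-199a-3p (1.86), not miR-143-3p (-0.47), miR-145a-5p (-0.48) or miR-214-3p (1.502). The red blood cell call was miR-451a (1.57), not miR-144-3p (-1.31) or miR-486a-5p (-0.199). The muscle call was miR-206-3p (-2.06), not miR-1a-3p (0.32) or miR-133a-3p (0.27). Without saline replicate 2, miR-145a-5p (-0.72) and miR-486a-5p (-0.65) were called lower and miR-214-3p (1.15) and miR-1a-3p (2.09) higher. No call was made among 4 hindbrain and spinal cord markers, and no marker was at 0 in all libraries. The part of other cells in the miR-9b-5p difference was not tested.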

How the data were processed

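Small RNA of the NAc was sequenced in 3 saline and 3 morphine libraries, grouped by the sample records. The authors removed adapter, poly-N and low-quality reads, kept reads of 15 to 35 nt, filtered out other RNA classes and repeats with Bowtie and compared the rest with miRBase. The aligner settings, genome build, strand setting and miRBase release of the counting are not given in the sources used here. Raw read counts, a row per mature miRNA, were deposited by the authors and were used as they are. The deposited TPM values are each count scaled to its library total and were used in no test (0 columns belonged to no sample).

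All 1364 rows were fitted with TMM and the quasi-likelihood test of edgeR 4.0.16 (R 4.3.3), group only, all 6 libraries, Benjamini-Hochberg adjusted over all rows. Log2 ratios of arms (258 pairs) and of opposite-strand rows (24 pairs, overlap of at least 16 nt, at least 10 counts per row, pseudocount 1) were tested with limma 3.58.1 and with an exact two-sided permutation test. No pair of libraries was equal within sampling noise (smallest chi-square per degree of freedom 55.2). Depth sets the floor of 3 counts in each library. Sequences and positions are from RefSeq GRCm38.p6 and hosts from the GENCODE annotation of GRCm38. The fits were tested on simulated data. Named were the 4 members, the 5 rows most like each miR-9 arm, opposite pairs with at least 1000 counts per row (miR-203b-5p was added after its values were seen), called miRNAs of a neural list, and marker lists. Members and lists were chosen with earlier results of these data known. Alternatives were other scalings (relative log expression, library totals, upper quartile), DESeq2 1.42.0, the exact test of edgeR, filters, miRBase names only, removal of opposite rows, thinning to 4183333 counts, pseudocount 0.5, the replicate number as a block and leaving out each library.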

Additional observations from a re-analysis of the deposited data

How the results depend on the processing

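miR-9b-5p was called by the study's criteria in 16 of 16 alternatives, with log2 fold changes of 4.52 to 7.15. Its adjusted p went from 5.35e-56 (edgeR without saline replicate 2) to 0.107 (edgeR without morphine replicate 1). The ratio of miR-9b-5p to miR-9-3p was called in 9 of 9 (4.71 to 5.04). Leaving out each library in turn gave -0.36 to 0.65 for miR-9-5p, -0.60 to 2.25 for miR-9-3p and -0.36 to 0.65 for miR-9b-3p, -1.59 to -0.45 for the arm ratio and 176 to 492 DEmiRNAs. The turns to 0.65, 2.25 and 0.65, the arm ratio of -1.59 and the count of 492 came without saline replicate 2, and the count of 176 without morphine replicate 1. The replicate block turned miR-9-5p to 0.10, miR-9-3p to 1.16 and miR-9b-3p to 0.10, none of them called, gave 5.96 for miR-9b-5p (adjusted p = 0.000677), -0.87 for the arm ratio and 4.92 for miR-9b-5p over miR-9-3p (adjusted p = 0.0358), and changed no other call of a member. Nothing in the labels says that the numbers pair the libraries. Same-numbered deviations correlated at -0.23, -0.28 and 0.14, which cannot decide the question with 3 libraries per group. At an adjusted p, 71 rows were called against 264, and leaving out each library in turn gave 0 (without morphine replicate 1) to 386 (without saline replicate 2). The share of DEmiRNAs higher in morphine was 50% in the main analysis, 34.9% with library totals, 37.7% with upper quartile scaling and 61.5% with the block, and the median log2 fold change of all rows was -0.40, -0.35 and 0.04 in these. Leaving out pairs with equal rows, chosen after seeing the data (as was the fit of the lists without saline replicate 2), left the adjusted p of the miR-9b-5p ratio at 0.000206. The cause of these changes was not tested. Depth limits miR-9b-5p most, with 8 counts in saline replicate 1.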
